A study of Mus musculus with 37 samples.

Results

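Vitamin B12 (cobalamin) enters cells through carrier proteins and their receptors, and 8 genes of that route were followed here across the count table of mouse brain. They are Amn and Cubn, which encode the 2 parts of an epithelial uptake receptor, Tcn2, the blood carrier, Cd320, the receptor for that carrier, Mmachc, Mmaa and Mmab, which process and load the vitamin inside the cell, and Mtr, an enzyme that uses it. They were found by matching the Ensembl identifiers of the table to those 8 symbols, which gave 8 of 56980 genes, and all 8 were among the 19332 genes with enough counts to be tested. The set was picked because Amn was higher with antibiotics in these same libraries, so the differences of these 8 genes between antibiotics and water are given as a description, with nothing read from a count past a threshold.

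All mice were male, wild type and of the C57BL/6J strain. They began the experiment as adults (postnatal day 55) or as adolescents (postnatal day 25), took antibiotics by mouth or stayed on water, and were injected under the skin with morphine at 15 mg/kg or with saline over 5 days. The study asked how a brief course of antibiotics bears on morphine reward and gene expression at the 2 ages. The labels give the tissue as brain, with all cell types, while the title of the series places it in the medial prefrontal cortex. The antibiotics themselves are not named in the labels. The 37 libraries fall into 8 groups, and 35 were used after leaving out 1 of adolescent antibiotics saline with 25165 counts and 1 of adult antibiotics morphine with 58764 counts. The groups then held 4 libraries of adult antibiotics morphine, 5 of adult antibiotics saline, 5 of adult water morphine, 3 of adult water saline, 5 of adolescent antibiotics morphine, 3 of adolescent antibiotics saline, 5 of adolescent water morphine and 5 of adolescent water saline. The labels number the libraries within a group but do not say that each came from its own mouse, so p-values measure the spread between these samples, which may be technical.

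In the gut and the kidney, amnionless (Amn) anchors cubilin (Cubn) in the membrane, and the pair takes up B12 bound to intrinsic factor in the ileum and filtered proteins in the proximal tubule. Most other cells, brain cells included, take up B12 bound to transcobalamin (Tcn2) through the receptor CD320. Inside the cell MMACHC strips the vitamin of its upper ligand, MMAB makes the form that the mitochondrial methylmalonyl-CoA mutase needs, MMAA escorts it to that enzyme, and methionine synthase (Mtr) uses the methylated form to turn homocysteine into methionine.

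The 35 libraries held between 10630727 and 31560468 counts. Slc17a7, a gene of cortical excitatory neurons, had at least 1172 CPM (counts scaled to a library of 1000000) in each of them. The lowest value was that of replicate 1 of adolescent water saline. This level therefore cannot tell a clean cortical sample from one mixed with other brain regions. Replicate 1 of adolescent water saline stood apart, with a summed level of 1163 CPM for 8 genes of striatal neurons and 19110 CPM for 7 myelin genes, and results were also computed in the 34 libraries without it. In pairs with its group it had a chi-square per gene of 38.1 to 65. Replicate 2 of adult antibiotics saline had 34.4 to 54 in pairs with its group, whose other pairs had 3.97 to 13.5. Replicate 2 of adult antibiotics saline was left out only where each library was left out in turn. In 7 adolescent libraries and no adult one, more than 20 counts came from 6 pancreatic islet hormone genes, and these were 3 of antibiotics morphine, 1 of antibiotics saline, 2 of water morphine and 1 of water saline. A fit with a term for those libraries is given beside the age results it touches.

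The promoter of Amn is shown because Amn is the gene on which the set was picked, and the first of the 2 listed for Cd320 because Cd320 was the other gene of the set past the threshold with age. Both come from RefSeq (GRCm38.p6), cover 250 bases before and 50 after a start site on the plus strand, and are in lower case with each CACGTG in capitals. This is the E-box letter pattern.
Amn, chr12:111270846-111271145: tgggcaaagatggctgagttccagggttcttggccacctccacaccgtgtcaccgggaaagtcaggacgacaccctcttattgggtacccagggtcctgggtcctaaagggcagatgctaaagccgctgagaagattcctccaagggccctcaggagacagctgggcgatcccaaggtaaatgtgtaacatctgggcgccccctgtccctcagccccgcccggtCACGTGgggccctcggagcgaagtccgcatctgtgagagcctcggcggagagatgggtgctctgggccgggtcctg
Cd320, chr17:33842841-33843140: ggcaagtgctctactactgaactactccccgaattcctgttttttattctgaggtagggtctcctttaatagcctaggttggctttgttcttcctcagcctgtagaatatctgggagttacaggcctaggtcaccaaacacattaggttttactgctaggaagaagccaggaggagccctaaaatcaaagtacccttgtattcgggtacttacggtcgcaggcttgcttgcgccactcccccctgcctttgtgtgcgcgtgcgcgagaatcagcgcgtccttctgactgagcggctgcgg
The table matched 7 of the 8 genes, with 9 promoters, and Tcn2 had no entry. CACGTG, which reads the same on both strands, was found in the Amn promoter only among the 9, at position -26 from the start site, and in 7.15% of all 32851 promoters of that length. The Amn window also held GGGCGG (35.7% of all promoters on either strand) and CCAAT (37.4%), and no TATAAA (13.6%). The Cd320 window shown held none of the 4 patterns, while the second Cd320 promoter, not shown, held 3 matches of GGGCGG and 1 of CCAAT. A match of letters is a description of the window, and no binding was measured here.

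Amn was higher with antibiotics than with water at both ages and under both injections, and the difference on the log2 scale lay between 0.42 and 1.05. In adult morphine mice the 4 antibiotics libraries had 8.17, 6.79, 7.85 and 6.47 CPM of Amn, against 5.35, 3.76, 4.81, 6.72 and 4.88 CPM in the 5 water libraries. In adult saline mice the values were 8.46, 7.68, 7.19, 11.2 and 5.78 CPM with antibiotics and 4.99, 6.12 and 5.30 CPM with water. In both adult comparisons the highest water library lay above the lowest antibiotics library, and the other antibiotics values lay above all water values.

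In adolescent morphine mice Amn had 10.6, 11.4, 9.18, 10.04 and 10.8 CPM with antibiotics and 5.95, 6.13, 7.52, 8.51 and 10.8 CPM with water. In adolescent saline mice it had 8.12, 10.5 and 11.7 CPM with antibiotics and 3.30, 4.75, 4.07, 5.86 and 6.46 CPM with water. The saline groups were fully apart, as were 5.37% of all genes tested in that comparison, in either direction, while 1 water library with morphine reached into the range of the antibiotics libraries. The lowest value in any group was that of replicate 1 of adolescent water saline, the library with the striatal and myelin genes.

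Expressed as a log2 fold change of antibiotics over water, Amn stood at 0.52 in adult morphine mice (SE 0.19), 0.55 in adult saline mice (SE 0.21), 0.42 in adolescent morphine mice (SE 0.17) and 1.05 in adolescent saline mice (SE 0.19). The mean over these 4 strata was 0.64 (SE 0.09). Across all libraries Amn lay between 5.78 and 11.7 CPM with antibiotics (median 8.46, n = 17) and between 3.30 and 10.8 CPM with water (median 5.60, n = 18). Amn was the only gene of the set past the edgeR threshold in the averaged comparison, where 10.2% of all genes passed, and again in adolescent saline mice, where 0.0103% did. None of the 8 passed in adult morphine mice (1.92% of all genes), adult saline mice (0.031%) or adolescent morphine mice (1.11%). Amn was chosen on this difference, so nothing is read from those counts. Without replicate 1 of adolescent water saline its difference in adolescent saline mice was 0.92.

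In order of mean, Amn was highest in adolescent antibiotics morphine (10.4 ± 0.82 CPM, SD, n = 5) and adolescent antibiotics saline (10.1 ± 1.81 CPM, n = 3). Adult antibiotics saline followed at 8.06 ± 2.00 CPM (n = 5), adolescent water morphine at 7.79 ± 2.00 CPM (n = 5) and adult antibiotics morphine at 7.32 ± 0.82 CPM (n = 4). The lowest were adult water saline at 5.47 ± 0.59 CPM (n = 3), adult water morphine at 5.11 ± 1.08 CPM (n = 5) and adolescent water saline at 4.89 ± 1.29 CPM (n = 5). Of the neighbours in this order, only adult antibiotics morphine and adult water saline were further apart (1.85 CPM) than the sum of their SDs.

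**Figure D1:**
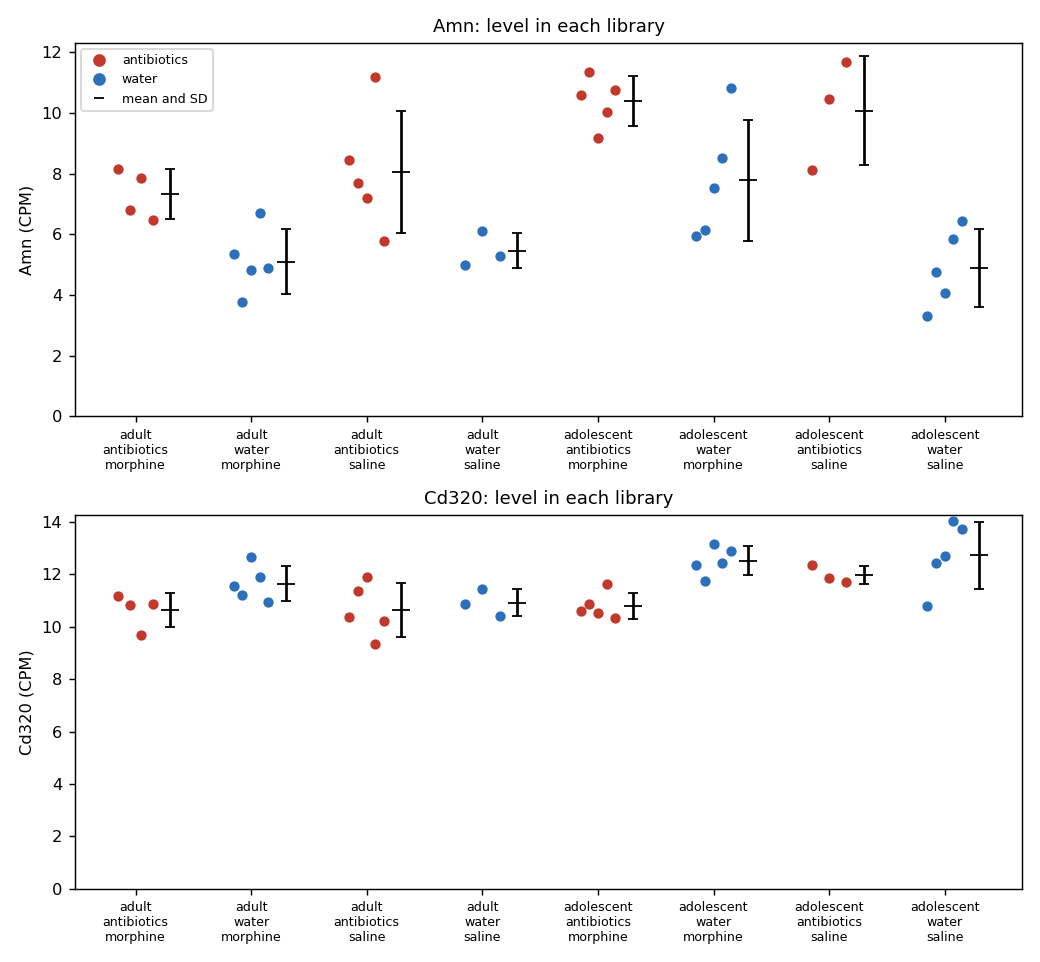
Level of Amn (top) and Cd320 (bottom) in CPM for each library, by age, drinking condition and injection, with red points for antibiotics, blue points for water and black bars for the group mean and SD. Amn sat between 5.78 and 11.7 CPM in the 17 antibiotics libraries and between 3.30 and 10.8 CPM in the 18 water libraries, and Cd320 sat between 9.34 and 14.0 CPM in all 35.

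The other 7 genes did not share the pattern of Amn. Cd320 averaged 10.9 ± 0.82 CPM with antibiotics (n = 17) and 12.1 ± 1.03 CPM with water (SD, n = 18), a log2 difference of -0.12 (SE 0.04). Mmaa averaged 16.5 ± 1.63 CPM with antibiotics and 17.7 ± 1.248 CPM with water, a difference of -0.10 (SE 0.04). Both of these receptor and chaperone genes stood lower with antibiotics, with ranges that overlapped.

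Within single strata, Cd320 had 10.6, 10.9, 10.5, 11.6 and 10.4 CPM in adolescent antibiotics morphine mice, against 12.4, 11.8, 13.2, 12.4 and 12.9 CPM in adolescent water morphine mice. Those groups did not overlap, which held for 4.35% of all genes tested. In adolescent saline mice Mmaa had 15.88, 16.66 and 16.02 CPM with antibiotics and 17.05, 18.51, 17.90, 17.33 and 16.73 CPM with water, again without overlap (5.37% of all genes). The antibiotics difference averaged over strata was -0.14 for Tcn2 (SE 0.09) and -0.14 for Cubn (SE 0.23). It was at most 0.01 in size for Mtr, Mmachc and Mmab. The median over the 8 genes was -0.05, beside -0.0008 over all genes tested.

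Markers of other cells were measured beside them. In edgeR 5 of 6 microglial genes were lower with antibiotics (5.05% of all genes), 5 were lower in adults (11.2%) and 2 were lower with morphine (0.316% passed in either direction). The summed level of the 6 microglial genes was 244 to 338 CPM with antibiotics (median 290.0) and 285 to 395 CPM with water (median 325), and 244 to 337 CPM in adults (median 298) and 278 to 395 CPM in adolescents (median 314). Of 7 astrocyte genes, 3 were lower with antibiotics and 1 in adults. With antibiotics none of 7 myelin genes and none of 6 endothelial genes passed. The part of these cells in the levels of the B12 genes was not tested.

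The size of the Amn difference with antibiotics was also set side by side across ages and injections. The antibiotics difference in adults minus that in adolescents was -0.20 (SE 0.19), and that in morphine mice minus that in saline mice was -0.33 (SE 0.19). Each of the other 7 genes missed the edgeR threshold in both interactions, where 0% and 0.00517% of all genes passed. None of the 7 had an unadjusted p under 0.05 in either, and DESeq2 called none.

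**Figure D2:**
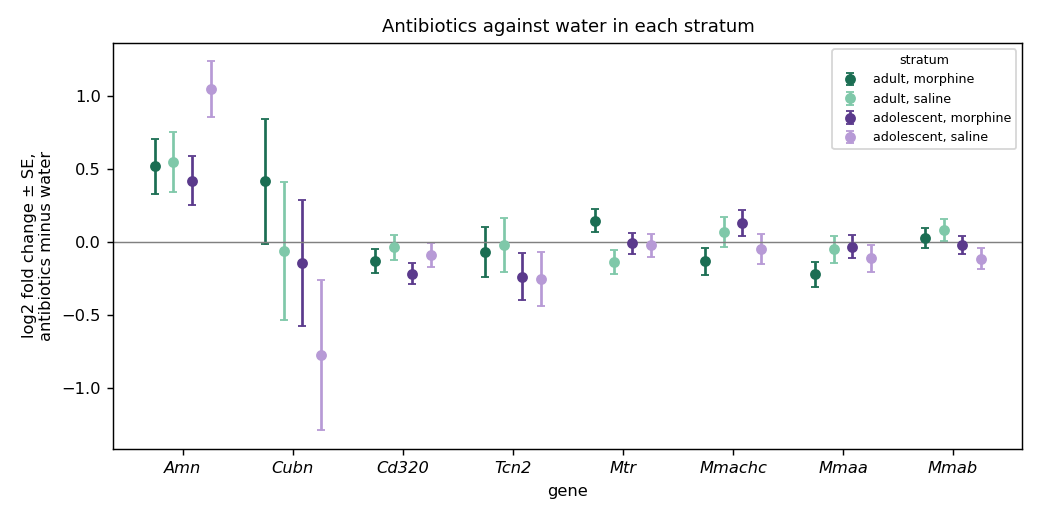
Log2 fold change of antibiotics over water for each of the 8 genes, with bars for the SE, in the 4 strata of age and injection. Amn lay above 0 in all 4 strata, between 0.42 and 1.05, while Cubn, with few counts, ranged from -0.77 to 0.42.

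Averaged over age and drinking condition, none of the 8 genes passed the test for morphine. The edgeR quasi-likelihood test with Benjamini-Hochberg adjustment over all genes called 0 of 8, none had an unadjusted p under 0.05, DESeq2 called 0, and 0.316% of all genes passed. Amn had 3.76 to 11.4 CPM with morphine (median 7.52, n = 19) and 3.30 to 11.7 CPM with saline (median 6.29, n = 16), with a log2 difference of 0.12 (SE 0.09) and an adjusted p of 0.674 in edgeR. The other 7 differences lay between -0.02 and 0.15, and the median over the 8 genes was 0.04, beside 0.0009 over all genes.

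The largest morphine difference of Amn was in adolescent mice on water. There the morphine libraries had 5.95, 6.13, 7.52, 8.51 and 10.8 CPM and the saline libraries 3.30, 4.75, 4.07, 5.86 and 6.46 CPM. The highest saline library overlapped the 2 lowest morphine libraries. The log2 difference was 0.67 (SE 0.17), with an adjusted p of 0.079 in edgeR and of 0.0309 in DESeq2. In edgeR it passed without either of 2 morphine libraries or either of 2 saline libraries (replicates 1 and 2 with morphine, 4 and 5 with saline), with adjusted p between 0.0178 and 0.0495.

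The same morphine difference of Amn was -0.13 in adult antibiotics mice (SE 0.18), -0.10 in adult water mice (SE 0.21) and 0.04 in adolescent antibiotics mice (SE 0.19). Morphine by age, the morphine difference in adults minus that in adolescents, was -0.47 for Amn (SE 0.19). Its edgeR adjusted p was 0.685 (unadjusted 0.0171), so a difference in response between the ages was not shown. Morphine by age called 0 of the 8 genes in edgeR and in DESeq2, with 1 of them under an unadjusted p of 0.05, and 0.00517% of all genes passed.

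No gene of the set passed in any of the 4 morphine comparisons of 2 groups in edgeR. The share of all genes that passed was 0% in adult antibiotics mice, 0% in adult water mice, 0.0466% in adolescent antibiotics mice and 0.331% in adolescent water mice. An unadjusted p under 0.05 was reached by 1 gene in adult antibiotics mice, none in adult water mice, none in adolescent antibiotics mice and 1 in adolescent water mice. DESeq2 called Amn in the last and none in the others.

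The gene of the adult antibiotics comparison was Mtr. It had 23.5, 25.8, 20.2 and 21.8 CPM with morphine and 17.9, 19.2, 21.7, 18.2 and 18.0 CPM with saline, a log2 difference of 0.27 (SE 0.08) with an edgeR adjusted p of 0.284. The lowest morphine library overlapped the highest saline one. Groups were apart for Cd320 in adolescent antibiotics mice, where morphine libraries had 10.6, 10.9, 10.5, 11.6 and 10.4 CPM and saline libraries 12.4, 11.9 and 11.7 CPM, as were 8.54% of all genes. They were also apart for Mmab in adult water mice, with 27.1, 24.8, 24.6, 24.1 and 25.2 CPM after morphine and 23.3, 23.9 and 23.8 CPM after saline, as were 3.51% of all genes. Neither passed the test.

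Adults had less Amn and less Cd320 than adolescents, and the other 6 genes did not pass the test. The edgeR test averaged over drinking condition and injection called 2 of 8 genes, both lower in adults, where 20.3% of all genes passed and 11.2% were lower. The share of the set was close to the background of either direction and above that of lower genes. With only 8 genes, nothing is read from that share. Since these are bulk samples, fewer cells of a type and less RNA per cell cannot be told apart.

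Amn had 3.76 to 11.2 CPM in adults (median 6.47, n = 17) and 3.30 to 11.7 CPM in adolescents (median 8.32, n = 18). The ranges overlapped almost wholly. The log2 difference was -0.32 (SE 0.09), with an adjusted p of 0.0143 in edgeR. By stratum it was -0.51 in antibiotics morphine mice (SE 0.18), -0.33 in antibiotics saline mice (SE 0.19), -0.61 in water morphine mice (SE 0.18) and 0.17 in water saline mice (SE 0.21). Adults were thus below adolescents in 3 of the 4 strata. In the mice that had neither agent the difference was smaller than its SE, and no direction is read from it. Without replicate 1 of adolescent water saline that difference was 0.04. Only in antibiotics morphine mice were the age groups apart, with 8.17, 6.79, 7.85 and 6.47 CPM in adults and 10.6, 11.4, 9.18, 10.04 and 10.8 CPM in adolescents, as were 6.97% of all genes.

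Cd320 had 9.34 to 12.7 CPM in adults (median 10.9) and 10.4 to 14.0 CPM in adolescents (median 12.1). Its log2 difference was -0.13 (SE 0.04), with an adjusted p of 0.0207 in edgeR. It was lower in adults in all 4 strata, with log2 differences between -0.22 and -0.02. Adult water saline mice had 10.9, 11.5 and 10.4 CPM of Cd320, and adolescent water saline mice had 10.8, 12.4, 12.7, 14.0 and 13.7 CPM. The one low adolescent value was again that of replicate 1.

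Both age calls moved with features of the libraries. With a term for the 7 libraries that held islet hormone counts, the adjusted p was 0.0736 for Amn (log2 difference -0.28) and 0.143 for Cd320 (-0.10) in edgeR. The part of those libraries in the result was not tested beyond that fit. With all 37 libraries and with no filter on low counts, the adjusted p of Cd320 was 0.067 and 0.0858, while that of Amn was 0.0137 and 0.0301. Leaving out any 1 library kept both genes past the threshold.

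Transcripts of Amn are rich in G and C (62.9% of the longest annotated transcript, where the median of the tested genes was 49.6%). A GC index was therefore computed for each library after the data had been seen, as the mean log2 level of the 20% of genes richest in G and C minus that of the 20% poorest, each gene centred over the libraries. It ran between -0.15 and 0.06 in adults and between -0.03 and 0.15 in adolescents. With antibiotics it ran between -0.11 and 0.15, and with water between -0.15 and 0.08. The balance was poorer in adolescent saline mice, where the antibiotics difference of Amn was largest. There the index ran between 0.03 and 0.15 with antibiotics (median 0.14, n = 3) and between -0.03 and 0.08 with water (median 0.01, n = 5). Amn passed in that comparison in the main fit, but no gene of the set passed there once the index was a term in edgeR. The part of the index in that Amn difference was not tested beyond that fit. With the index as a term in edgeR, the age difference of Amn was -0.14 (SE 0.12) with an adjusted p of 0.506, and that of Cd320 was -0.17 with an adjusted p of 0.0399. The antibiotics difference of Amn was 0.56 (SE 0.09) in that fit, and its morphine difference in adolescent water mice was 0.69 with an adjusted p of 0.0458. Age and the index moved together across these libraries, so their parts in the age difference of Amn cannot be told apart.

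**Figure D3:**
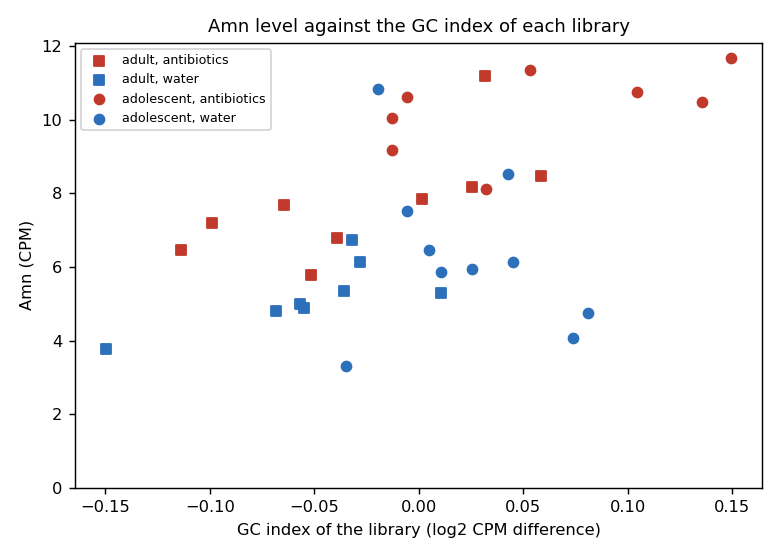
Amn level in CPM against the GC index of each library (a difference of log2 CPM), with squares for adults, circles for adolescents, red for antibiotics and blue for water. Adult libraries lay between -0.15 and 0.06 on the index and adolescent ones between -0.03 and 0.15, while red and blue points shared most of the axis. In adolescent saline mice, not marked apart, red points lay between 0.03 and 0.15 and blue points between -0.03 and 0.08.

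The remaining age differences were small or uncertain. Cubn averaged 0.783 ± 0.346 CPM in adults (n = 17) and 0.562 ± 0.302 CPM in adolescents (SD, n = 18), a log2 difference of 0.57 (SE 0.23) with an edgeR adjusted p of 0.0759. It passed without replicate 4 of adolescent water morphine (adjusted p 0.042), without replicate 3 of adolescent water saline (0.0458) and with the GC term (1.07, adjusted p 0.0184). Mtr averaged 20.7 ± 2.01 CPM in adults and 19.4 ± 1.42 CPM in adolescents, a difference of 0.10 (SE 0.04) with an adjusted p of 0.0667. It passed when replicate 2 of adolescent antibiotics morphine, replicate 3 of adolescent water saline or replicate 3 of adult antibiotics morphine was left out (lowest adjusted p 0.0172). Mmab averaged 25.0 ± 1.49 CPM in adults and 26.3 ± 1.83 CPM in adolescents, a difference of -0.07 (SE 0.03) with an adjusted p of 0.141. For Tcn2, Mmachc and Mmaa the differences lay between -0.03 and 0.07.

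In the 4 age comparisons of 2 groups, edgeR called none of the 8 genes. The share of all genes that passed was 1.87% in antibiotics morphine mice, 1.39% in antibiotics saline mice, 0.626% in water morphine mice and 3.39% in water saline mice. In the same order, 2, 0, 1 and 2 of the 8 genes had an unadjusted p under 0.05. DESeq2 called 1, Mtr in antibiotics morphine mice (log2 difference 0.25, adjusted p 0.0441, against 0.07 in edgeR). With only the 2 compared groups in the edgeR fit, Amn passed there as well (adjusted p 0.0182). Mmab was apart in water saline mice, with 23.3, 23.9 and 23.8 CPM in adults and 28.7, 24.01, 29.4, 24.8 and 27.4 CPM in adolescents, as were 12% of all genes.

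**Figure D4:**
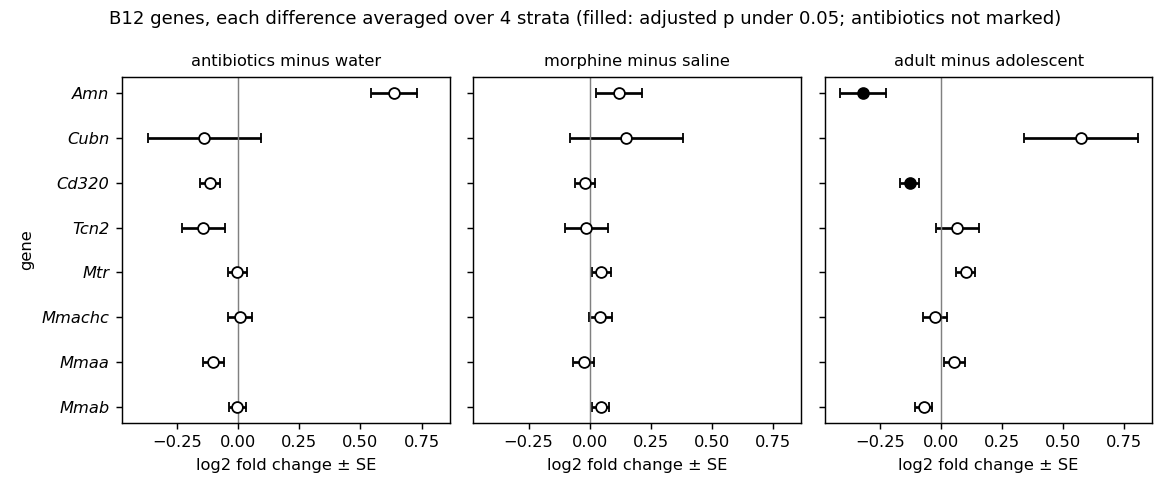
Log2 fold change of each of the 8 genes with its SE, averaged over 4 strata, for antibiotics over water, morphine over saline and adult over adolescent. The antibiotics panel is a description with no call marked. In the other panels filled points passed an adjusted p of 0.05 in edgeR, which were none for morphine, and Amn and Cd320 for age.

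Per kilobase of exon, the levels of the 8 genes differed widely while their spread between libraries was mostly narrow. Mmab had 6.99 ± 0.48 CPM per kilobase (SD, n = 35), Tcn2 5.93 ± 1.11, Mmachc 5.91 ± 0.55, Cd320 3.99 ± 0.38, Amn 3.99 ± 1.29, Mmaa 2.84 ± 0.25 and Mtr 2.35 ± 0.22 CPM per kilobase. Cubn had 0.0448 ± 0.0227 CPM per kilobase. Amn was thus at the level of Cd320, while its partner in the epithelial receptor stood lowest of the 8, with 3 to 34 counts in a library. At that depth a difference in Cubn was hard to detect, and its SE was the widest of the set in each of the averaged comparisons.

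Of 6 marker genes of kidney proximal tubule and gut epithelium, where Amn and Cubn act as a receptor, some were at or near 0 and others were not. Fabp2 and Cdx2 were at 0 in 31 of 35 libraries each and Cdh16 in 27, with at most 0.198 CPM of any of them. Slc34a1 was at 0 in 6 libraries and reached 2.11 CPM, Vil1 had 0.429 to 1.90 CPM, and Slc22a6 had 2.13 to 30.95 CPM. The summed level of the 6 was 3.27 to 32.5 CPM with antibiotics (median 7.01) and 3.13 to 27.3 CPM with water (median 7.43). The highest sum was in replicate 1 of adult antibiotics morphine, most of it Slc22a6, an organic anion transporter. Which cells these reads came from was not tested, nor was the part of any such cells in the level of Amn.

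That same library had the highest Tcn2 and the highest Cubn. In adult antibiotics morphine mice Tcn2 had 20.1, 10.6, 12.6 and 8.92 CPM and Cubn 1.92, 0.517, 0.582 and 0.711 CPM, with replicate 1 first in each. The summed level of 6 genes of meningeal and vascular fibroblasts was 226 CPM in that library and 51.9 to 174 CPM in the other 34. The summed level of 6 pericyte and smooth muscle genes was 389 CPM there and at most 283 CPM in the others. The second highest fibroblast sum, 174 CPM, was in replicate 5 of adult water morphine, which had the second highest Tcn2, 18.7 CPM. The sum of the kidney and gut list was also highest in these libraries, at 32.5 and 27.3 CPM. The part of fibroblasts, pericytes and smooth muscle in the levels of Tcn2, Cubn and that list was not tested. Amn in the first of these libraries, 8.17 CPM, was within the range of the antibiotics libraries.

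**Figure D5:**
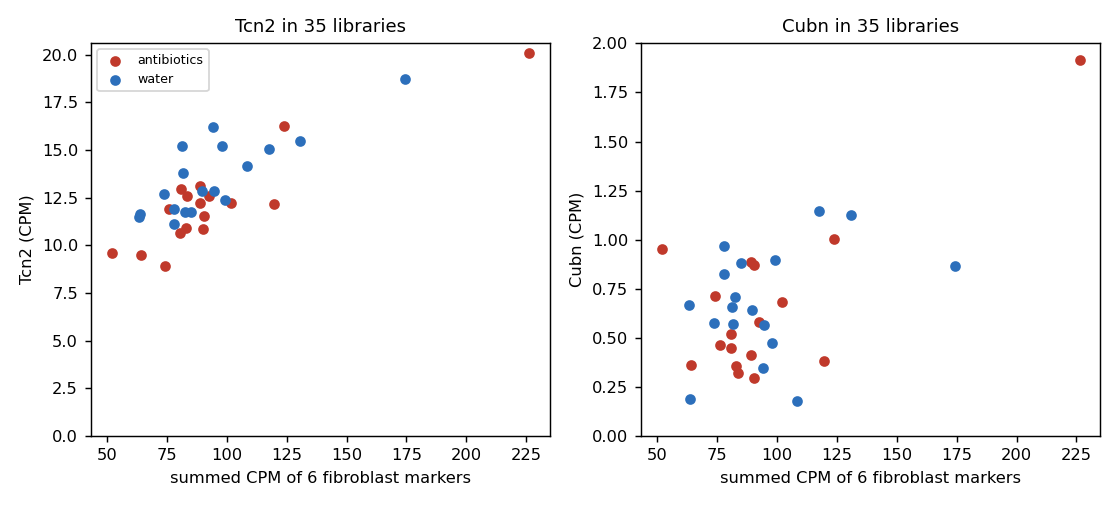
Tcn2 (left) and Cubn (right) in CPM against the summed CPM of 6 fibroblast marker genes in the 35 libraries, red for antibiotics and blue for water. The library at 226 CPM of markers had 20.1 CPM of Tcn2 and 1.92 CPM of Cubn, the highest of each.

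The genes whose levels ran most like that of Amn over the 35 libraries were Zfp651 (Pearson r = 0.859 of log2 CPM), Fbxo31 (0.827), Klhdc3 (0.82), Fndc10 (0.819) and Zmiz2 (0.807). These correlations are a description over libraries that differ in depth and in the GC index. The transcripts of those 5 genes hold between 57.2% and 62.9% G and C, and their own antibiotics differences were smaller, between 0.09 and 0.18 on the log2 scale. The 7 other B12 genes had correlations with Amn between -0.27 and 0.003. Of the neighbours of Amn in GENCODE M21, Traf3, 3941 bases away on the same strand, had an r of 0.009, and A230087F16Rik, 8335 bases away on the other side, one of 0.426. No annotated gene overlaps Amn. Cubn is overlapped by Gm13270 on the other strand, and whether the counting used strand is not stated, so reads of the pair may be mixed.

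Other genes of B12 handling moved little. Of a list of 16, from the megalin receptor Lrp2 to the mutase Mmut, 14 were tested. With antibiotics, 1 was higher and 2 were lower, beside 5.16% and 5.05% of all genes. Thap11, a partner of the transcriptional co-regulator HCFC1, was higher by 0.12 on the log2 scale (edgeR adjusted p 0.0429). Zfp143, another partner of HCFC1, had 5.54 to 8.39 CPM with antibiotics (median 7.24) and 6.38 to 9.59 CPM with water (median 7.95) and was lower by 0.18 (0.0198). Mmut, the mitochondrial enzyme that MMAA and MMAB serve, had 21.6 to 28.4 CPM with antibiotics (median 24.6) and 24.3 to 33.0 CPM with water (median 27.1) and was lower by 0.13 (0.0294).

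These calls were near the threshold. With no filter on low counts none of the 3 passed (Thap11 0.105, Zfp143 0.0901 and Mmut 0.0605), nor with the GC term (0.128, 0.072 and 0.0505). With all 37 libraries Thap11 (0.0955) and Mmut (0.067) did not pass. Thap11 also lost its call in the 34 libraries (0.0534), with the islet term (0.0558) and when any 1 of 20 libraries was left out. Mmut and Zfp143 lost theirs without replicate 3 of adult water saline (adjusted p 0.0855 and 0.0671). Mmut also lost it without replicate 2 of adolescent antibiotics saline (0.0628). None of the 14 passed with morphine in edgeR. With age 2 of the 14 were higher in adults, beside 9.11% of all genes. Adults had more Lmbrd1, which takes part in the exit of the vitamin from the lysosome (log2 difference 0.08, edgeR adjusted p 0.0119), and more Zfp143 (0.18, 0.0152). Neither passed with the GC term (adjusted p 0.284 and 0.416) or with no filter on low counts (0.136 and 0.0997). The medians of this list were 0.01 with antibiotics, 0.02 with morphine and 0.04 with age, beside -0.0008, 0.0009 and 0.0035 over all genes.

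In the methionine cycle and transsulfuration list, 10 of 13 genes were tested. Cth, the enzyme that makes cysteine from cystathionine, was lower with antibiotics. It had 1.24 to 2.51 CPM with antibiotics (median 2.08, n = 17) and 1.71 to 3.77 CPM with water (median 2.54, n = 18), a log2 difference of -0.36 (SE 0.10) with an edgeR adjusted p of 0.0177. Without replicate 3 of adult water saline the adjusted p was 0.053. This was 1 of 10 lower, beside 5.05% of all genes. None of the 10 passed with morphine, where 0.316% did, and 2 were higher in adults, beside 9.11%. Adults had more Ahcyl2 (0.10, adjusted p 0.000814), a protein related to the hydrolase of S-adenosylhomocysteine, and more Mtap (0.18, 0.0271), which salvages methionine. The call of Mtap was lost with the GC term (adjusted p 0.162), with no filter on low counts (0.104) and without replicate 1 of adult antibiotics morphine (0.0569) or replicate 1 of adult water saline (0.0557). With antibiotics Ahcyl2 did not pass in the main fit (-0.06, edgeR adjusted p 0.0776). It was lower in the 34 libraries without replicate 1 of adolescent water saline (-0.07, 0.00627) and with the GC term (-0.07, 0.0376). The medians were 0.00 with antibiotics, 0.003 with morphine and 0.01 with age.

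In the folate list, 15 of 16 genes were tested, and Mthfd1l, a mitochondrial enzyme that releases formate, was the one that passed with morphine, beside 0.316% of all genes. It had 19.1 to 24.8 CPM with morphine (median 20.4, n = 19) and 12.8 to 19.3 CPM with saline (median 15.6, n = 16), and within each age and drinking condition the injection groups did not overlap. That held for 2.22% of all genes in adult antibiotics mice, 3.51% in adult water mice, 8.54% in adolescent antibiotics mice and 1.39% in adolescent water mice. The log2 difference was 0.42 (SE 0.04) with an edgeR adjusted p of 1.35e-09, and leaving out any 1 library kept it between 0.41 and 0.44. With antibiotics 1 of the 15 was higher and 1 was lower (5.16% and 5.05% of all genes), and in adults 1 was higher (9.11%). Mthfd1l was higher with antibiotics by 0.14 (adjusted p 0.00903) and in adults by 0.13 (0.0117). Neither call held with no filter on low counts (0.0614 and 0.105), and the age call was also lost with the GC term (0.113). Slc46a1, the proton-coupled folate transporter, was lower with antibiotics by 0.15 (0.049) and lost its call with all 37 libraries (0.0574), with no filter (0.118), with the GC term (0.0894) and when any 1 of 24 libraries was left out. The list medians were -0.03 with antibiotics, 0.02 with morphine and -0.07 with age.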

How the data were processed

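Polyadenylated RNA of mouse brain was measured in 37 libraries made with the Qiagen RNeasy Mini kit and an abclonal RNA-seq kit, per the labels. The authors deposited raw read counts per gene. STAR 2.7.10a, the mm10 build and DESeq2 are listed in the submitters' processing notes, which give no role for DESeq2, and no source used here states the annotation release or the strand setting. GENCODE M21 gave symbols for 52073 of 56980 identifiers. The counted annotation is later than that release, so coordinates are given only for RefSeq promoters (GRCm38.p6).

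The 35 libraries with at least 1000000 counts entered edgeR 4.0.16 (R 4.3.3) with TMM scaling, filterByExpr on the 8 groups (19332 genes left), 1 robust quasi-likelihood fit with a mean per group, and Benjamini-Hochberg adjustment over all genes with a threshold of 0.05. The fit gave 12 contrasts of 2 groups, 3 contrasts averaged over 4 strata and 3 interactions. CPM values use TMM-scaled totals, and levels per kilobase use exon lengths of GENCODE M21. Counting error is not given apart, since the spread between libraries contains it. The script was tested on simulated counts. Beside this, 9 other settings were tried, among them DESeq2 1.42.0, and each library was left out in turn. The GC term was added after the data were seen.

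All 8 genes are named in every contrast, with up to 4 passing genes of each related list per averaged contrast, the 5 genes most like Amn among those with a mean of at least 1 CPM (log2 CPM, prior count 2), and its neighbours. The genes and lists were chosen with earlier results of these data known. Of 62 pairs of libraries within groups none was a duplicate (chi-square per gene 1.78 or more).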

Additional observations from a re-analysis of the deposited data

Results flagged for a closer look

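A gap of 1 library from the rest of its group was looked for in 48 combinations of 8 genes and 6 groups of 4 or 5 libraries, where chance gives such a gap in about 1 in 20, and 2 were found. Cubn stood at 1.917 CPM in replicate 1 of adult antibiotics morphine, above the other 3 libraries of that group, which had 0.517 to 0.711 CPM. In the same library Tcn2 was at 20.1 CPM and the fibroblast marker sum at 226 CPM, the highest of the 35 in each. Mmab stood at 22.42 CPM in replicate 5 of adolescent water morphine, below the other 4 libraries of that group, which had 27.0 to 28.2 CPM. That library also had the highest Amn of its group, 10.8 CPM, and is 1 of the 7 with islet hormone counts.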

How the results depend on the processing

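No result changed direction past the threshold in any setting. The counts for antibiotics are a description, since the genes were picked on Amn in that contrast. For antibiotics in adolescent saline mice, 1 of the 8 genes passed, and 0 passed in the 34 libraries without replicate 1 of adolescent water saline, with no filter on low counts, with the GC term, with only the compared groups and without any 1 of 16 libraries (range over left-out libraries 0 to 1). For antibiotics averaged over strata, 1 passed, and 2 passed in those 34 libraries and with the islet term (range 1 to 2), the second being Cd320 with an adjusted p of 0.0187 and 0.0455. For morphine in adolescent water mice, 0 passed, and 1 passed with DESeq2 and with the GC term (range 0 to 1). For age in antibiotics morphine mice, 0 passed, and 1 passed with DESeq2 and with only the compared groups (range 0 to 1). For age averaged over strata, 2 passed, 1 with all 37 libraries, 1 with no filter, 0 with the islet term and 2 to 4 over left-out libraries, with 4 without replicate 3 of adolescent water saline. The cause of these changes was not tested. No pairing by replicate number was seen in the correlations of deviations from the group means. They were -0.226 to 0.277 for equal numbers (median 0.005) and -0.319 to 0.38 for other numbers (median 0.001). A pairing with a small effect would not show in these correlations. With the replicate number as a block, the counts for the 8 genes stayed at 2 for age, 1 for antibiotics and 0 for morphine, with Amn at -0.30 for age (adjusted p 0.015), while Mmut, Thap11 and Slc46a1 lost their antibiotics calls (0.0526, 0.0532 and 0.068). All settings of edgeR and DESeq2 kept the call of Mthfd1l with morphine. Cubn, with 3 to 34 counts in a library, is the gene that depth limits most.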
